A study of Homo sapiens with 9 samples.

Results

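The mitochondrial ribosome is built from protein genes of the nucleus and from 2 ribosomal RNAs that the mitochondrion itself encodes. The genes described here are those of its proteins, taken as every gene symbol that begins with MRPL (large subunit) or MRPS (small subunit), goes on with a number and at most 1 letter, and does not end in P, which marks pseudogenes. The rule used names and no measured values. It found 78 genes, 49 with MRPL and 29 with MRPS symbols, among the 56505 gene symbols of the count tables. All 78 had enough reads to be tested, together with 16921 genes in all, and they lay on 21 chromosomes with at most 8 on any one.

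Mitochondrial ribosomes translate the few proteins that mitochondrial DNA encodes, which are core subunits of the respiratory chain and of ATP synthase. The large subunit joins amino acids at its peptidyl transferase centre and passes the chain through an exit tunnel at the inner membrane, and the small subunit holds and decodes the mRNA. Some of the proteins descend from bacterial ribosomal proteins and others are found only in mitochondria. The proteins are made in the cytosol and imported, so their supply depends on nuclear genes spread over the genome.

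RNA was sequenced from MDA-MB-231-D3H2LN cells, a human breast tumour line that descends from MDA-MB-231. There were 3 groups with 3 libraries each, and all cells grew in DMEM rich in glucose and supplemented with FBS: wild type, which expresses JAG1, and JAG1 knockout clone 1 and clone 2. JAG1 encodes a ligand of Notch receptors. Per the labels, Cas9 complexes aimed at different places of a single exon were transfected, and each homozygous clone was derived from 1 cell, so each group is 1 line. No unedited or mock-edited single-cell clone is among the groups. Separate cultures are not named for the replicates, and the p-values below cover only the scatter of the libraries at hand, possibly technical.

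JAG1 read 246, 161 and 181 CPM (counts scaled to a common library total) in the wild-type libraries, 110, 80.8 and 92.3 in clone 1 and 76.1, 68.1 and 56.5 in clone 2. Every knockout library thus lay below every wild-type library. The libraries held 16890890 to 22456164 counts. The line's markers VIM, CD44, KRT8, KRT18, FN1 and EGFR were all present. Of these 6, 3 fell in clone 1 against wild type (KRT8, KRT18 and FN1), 1 rose in clone 2 (VIM), and 4 were higher in clone 2 than in clone 1 (VIM, KRT8, KRT18 and FN1), with a median log2 difference of 1.11 over the 6. ESR1, PGR and CDH1 were near 0. Of 12 markers of blood, endothelial, fat and fibroblast cells, 3 had enough reads to be tested. All 3 were nominally lower in clone 2 than in clone 1, at log2 differences from -4.40 to -0.94, and 1 was called. Among the 12, CD3E, HBB and ADIPOQ were at 0 in every group, while LUM read 13.5, 9.83 and 0.44 CPM on average in wild-type, clone 1 and clone 2 cells. The part of the markers that differed between groups in the results below was not tested.

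The promoters of these genes were searched for 3 short motifs, shown first because they group the genes by sequence alone. RefSeq promoters (GRCh38.p14, 250 bases before the start to 50 after it) were matched for 69 of the 78 genes. The letters CCGGAAG, a core of sites bound by ETS factors, occurred on either strand in 29 of the 69 (42.0%), against 10.7% of all 27305 promoters and 14.2% of the 15843 promoters of protein-coding genes. The letters AAGATGGCG, a core of sites bound by YY1, occurred in 13 of the 69 (18.8%), against 1.85% of all and 2.74% of protein-coding promoters. GCATGCGC, from the palindromic site of NRF1, a regulator of nuclear genes for mitochondrial proteins, occurred in 6 (8.70%), against 3.27% of all and 4.26% of protein-coding promoters. The ETS letters end, and the YY1 letters begin, with AAG, so a single stretch could match both. In the 4 promoters that had both motifs, the letters lay at separate places. At least 1 of those 2 motifs occurred in 38 of the 69 promoters.

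The YY1 letters lay at or after the annotated start in 10 of 14 occurrences and on the gene's own strand in 12 of 14. The 4 shown belong to genes described below as lower in clone 2 than in clone 1, and the last 2 lines show ETS letters in genes that were higher. These examples were picked by that call and do not tie a motif to a direction. The ETS letters occurred in 5 of 9 lower and 2 of 7 higher genes with a promoter entry. Capitals mark 1 occurrence of the motif in each stretch, in either orientation (the MRPS34 stretch holds another in lower case), and each stretch reads in the gene's direction.
MRPL50, chr9:101398577-101398606, minus strand: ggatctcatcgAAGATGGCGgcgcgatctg
MRPL42, chr12:93467511-93467540, plus strand: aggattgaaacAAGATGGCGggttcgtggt
MRPL38, chr17:75904860-75904889, minus strand: aggccggagggAAGATGGCGgcgccctggt
MRPL32, chr7:42932142-42932171, plus strand: tacccgcgctcCGCCATCTTtacccgaaga
MRPL28, chr16:370514-370543, minus strand: gcggcagatcggCTTCCGGttccggtgggc
MRPS34, chr16:1773146-1773175, minus strand: ggacaccggcctCTTCCGGtgacttccggc

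In wild-type cells the 78 genes were well expressed. Their median level per length was 87.5 TPM (a share of all transcripts, scaled by gene length), against 12.6 TPM for all genes tested. The MRPL genes had a median of 109 TPM and the MRPS genes of 50.7 TPM. Genes with a bacterial homologue (48) and genes found only in mitochondria (30) had medians of 92.1 and 78.7 TPM. The spread over the 3 wild-type libraries had a median coefficient of variation of 13.9%.

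The 3 most abundant were MRPL14 (uL14m, a core protein of the large subunit's interface) at 686 ± 129 TPM (SD, n = 3), MRPS10 (uS10m, of the small subunit head) at 502 ± 37.7 and MRPS34 (a mitochondria-specific small subunit protein) at 296 ± 40.7. MRPL14 lay above MRPS10 in each wild-type library, and MRPS10 above MRPS34. The 3 least abundant were MRPL38 at 4.76 ± 0.87, MRPL53 at 4.35 ± 0.07 and MRPS24 at 2.65 ± 0.67 TPM. MRPL38 (mL38, of the central protuberance) and MRPL53 (mL53, of the stalk base) are neighbours in that order and did not differ beyond their spread. All 3 share exon bases with another gene, at 41.1%, 45.2% and 23.2% of their exon length. The deposited counts are not stated to use strand, so reads from the shared stretches cannot be told apart from those of their neighbours. MRPS24 shares its exons with the read-through gene URGCP-MRPS24.

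**Figure D1:**
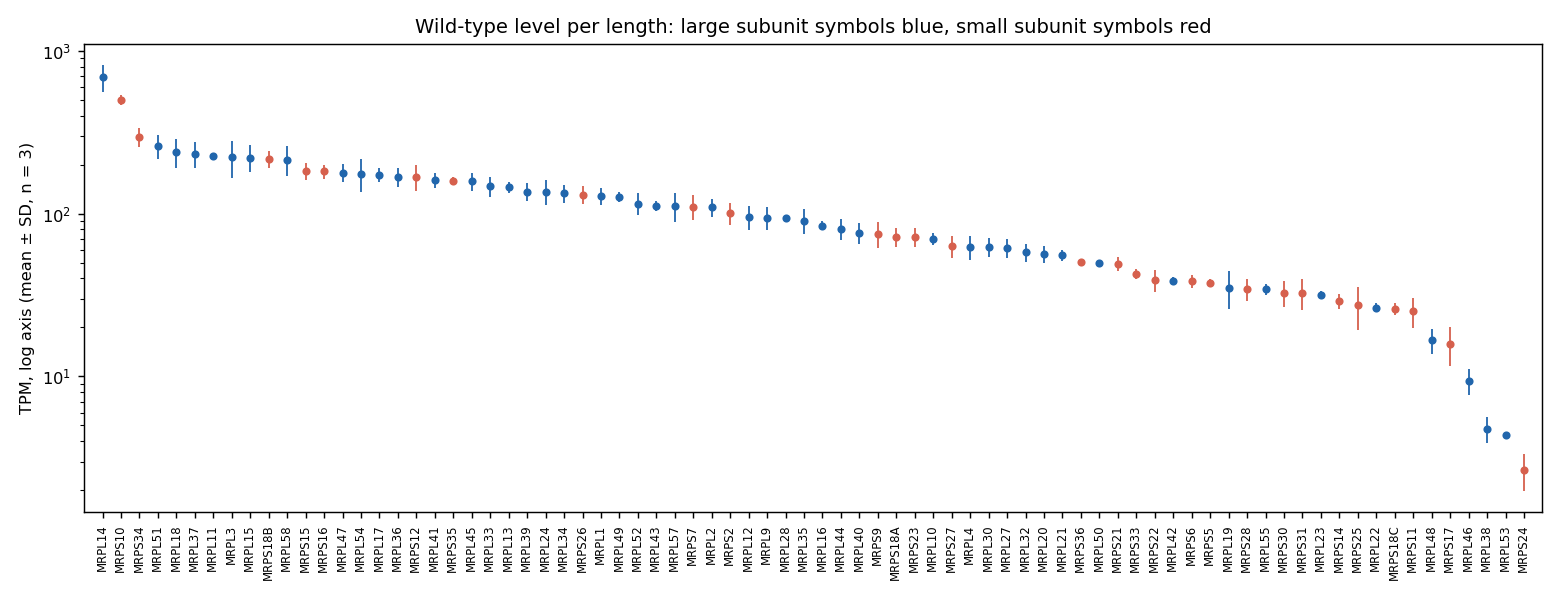
Wild-type level of each of the 78 genes in TPM on a log axis, as mean and SD of 3 libraries, ordered from highest to lowest with MRPL genes in blue and MRPS genes in red. MRPL14 leads at 686 TPM, the quartiles are 38.8 and 159 TPM, and MRPL38, MRPL53 and MRPS24 lie lowest.

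The libraries numbered 1 stood apart for these genes in every group. Summed over the 78 genes, the level was 6155, 4996 and 5441 CPM in wild-type libraries 1 to 3, 6702, 5857 and 5664 in clone 1, and 7423, 5127 and 5095 in clone 2. Library 1 held the highest value of its group for 58 of the 78 genes in wild-type cells, 63 in clone 1 and 72 in clone 2. Over all genes tested, the same libraries were highest for 31.0%, 38.5% and 36.04% of genes. The labels do not say what a replicate number marks.

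The level of the genes as a group did not separate the 3 lines. The summed level was 5531 ± 585 CPM in wild-type cells, 6075 ± 552 in clone 1 and 5882 ± 1335 in clone 2 (SD, n = 3 each), and the ranges of the groups overlapped. The ratio of summed MRPL to summed MRPS CPM was 1.75 ± 0.05, 1.82 ± 0.06 and 1.77 ± 0.09. Measured as the median log2 deviation of the 78 genes from their wild-type mean, clone 2 library 1 stood at 0.41, while clone 2 libraries 2 and 3 stood at -0.11 and -0.21. In bulk RNA a lower share of cells with a transcript and less of it per cell cannot be told apart.

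**Figure D2:**
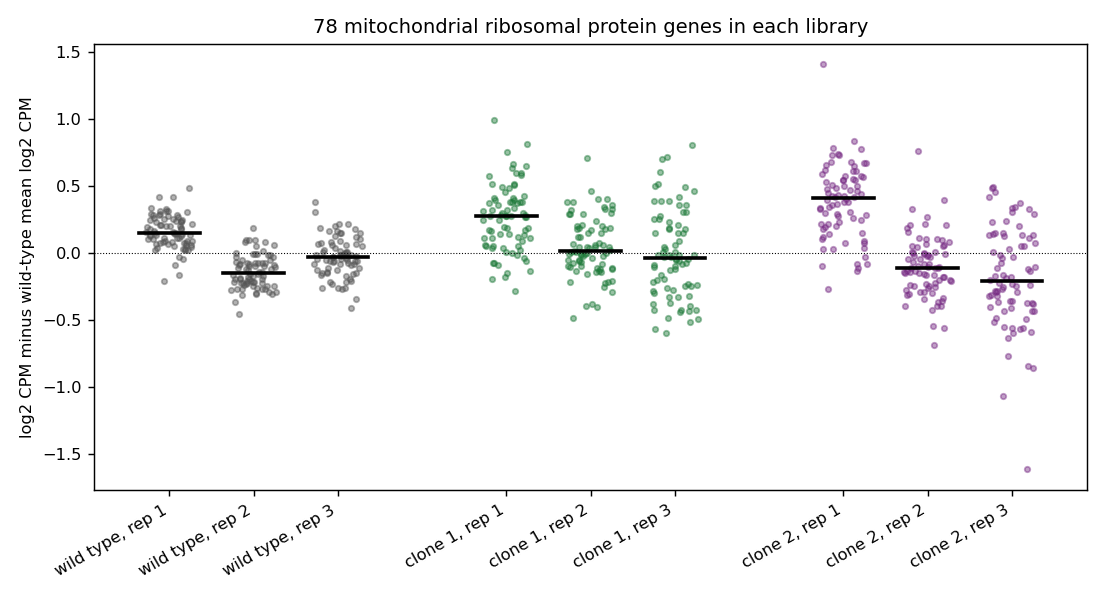
Each point is 1 of the 78 genes in 1 library, as log2 CPM minus the gene's wild-type mean, with the median as a bar and libraries ordered by group and replicate number. Library 1 has the highest median of each group: 0.15 in wild-type cells, 0.28 in clone 1 and 0.41 in clone 2.

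Clone 1 was compared with wild type to ask which of the genes differed in that knockout line. None of the 78 passed edgeR's quasi-likelihood test at an adjusted p of 0.05 (Benjamini-Hochberg over all genes tested), where 5.51% of all genes tested did (1.41% higher and 4.1% lower). At an unadjusted p of 0.05, 9 of the 78 were past the threshold, against 3692 of the 16921 genes tested. Of the 78, limma-voom called 0 and DESeq2 1 (MRPL54), where 5.58% and 4.31% of all genes in those fits were called. A fit of the 6 libraries compared called 4 higher (MRPL13, MRPL27, MRPL32 and MRPL54), where 7.85% of all genes tested were called. Without the filter on low counts 2 were called higher (MRPL32 and MRPL54), and with GC and length correction 2 (MRPL27 and MRPL54). Of all genes in those fits, 4.73% and 5.95% were called. The median log2 fold change was 0.14 for MRPL and 0.02 for MRPS genes, against -0.02 for all genes tested. In 74 of the 78 genes the 95% interval of the fold change lay within 2-fold either way, the others being MRPL38, MRPL53, MRPL54 and MRPS24.

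All 9 genes under the unadjusted threshold were nominally above wild type. They were MRPL13, MRPL17, MRPL27, MRPL32, MRPL42, MRPL47, MRPL50, MRPL54 and MRPS33, and in each of them the 3 clone 1 libraries lay above the 3 wild-type libraries. Libraries of clone 1 and wild type did not overlap in 14 genes that were above wild type and 3 that were below, or 17 of 78, against 29.6% of all genes tested.

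MRPL54 (mL54, which sits at the stalk base where translation factors bind) had the largest fold change. It read 60.3, 50.9 and 36.2 CPM in wild type and 84.6, 78.5 and 79.0 in clone 1. The clone 1 libraries were close together and all above wild type, where the values were spread widely. The log2 fold change was 0.72 (SE 0.23, adjusted p 0.0864). MRPL54 was called without the filter on low counts (adjusted p 0.00103), with DESeq2 (0.0270), in a fit of the 6 libraries compared (0.0157) and with GC content and length taken out of each library (0.0474), but not with RLE size factors or limma-voom. Calls also changed when 1 library was left out of the fit. Without clone 2 replicate 1, 5 genes were called higher (MRPL13, MRPL17, MRPL27, MRPL32 and MRPL54), where 7.34% of all genes tested were called. MRPL27 was called higher without wild-type replicate 1 (5.90% of all genes) and MRPL54 without clone 2 replicate 3 (5.74%).

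MRPL53 had a log2 fold change of 0.68 (SE 0.37, adjusted p 0.301), from levels of only 1.61 to 1.65 CPM in wild type and 2.23 to 2.84 in clone 1. MRPL38 stood at 0.52 (SE 0.36, adjusted p 0.418). At the other end, MRPS26 stood at -0.33 (SE 0.17, adjusted p 0.285), MRPS34 at -0.33 (SE 0.16, adjusted p 0.242) and MRPS28 at -0.29 (SE 0.20, adjusted p 0.403). None of these passed the test.

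Clone 2 was compared with the same wild-type libraries, so the comparisons share their controls and are given side by side. In clone 2, 1 of the 78 genes rose, MRPL2, and none fell, where 5.96% of all genes tested were called (3.21% higher and 2.75% lower). At an unadjusted p of 0.05, 9 of the 78 passed, 7 above and 2 below wild type, against 4097 of the 16921 genes tested. Libraries of clone 2 and wild type did not overlap in 5 genes above and 2 below wild type, against 25.9% of all genes tested. The median log2 fold change was 0.07 for MRPL and 0.05 for MRPS genes, against 0.00 for all genes tested. The 95% interval lay within 2-fold for 75 of the 78, all but MRPL38, MRPL53 and MRPS24.

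MRPL2 encodes uL2m, a protein beside the peptidyl transferase centre. It read 88.4, 68.5 and 74.3 CPM in wild-type cells, 87.6, 71.0 and 67.1 in clone 1 and 132, 101 and 107 in clone 2. Every clone 2 library lay above every wild-type and clone 1 library, and clone 1 and wild type overlapped. Against wild type the log2 fold change was 0.56 (SE 0.16, adjusted p 0.0442). The call was lost with RLE size factors (adjusted p 0.0509), with a fit of the 6 libraries compared (0.0876), and on leaving out any 1 of wild-type replicates 1, 2 and 3, clone 1 replicates 2 and 3, or clone 2 replicates 1 and 3. Genes called in such fits besides MRPL2 were MRPL28 (higher, without clone 2 replicate 2), MRPL19 (higher, without wild-type replicate 3) and MRPL1 and MRPS18C (lower, without clone 2 replicate 1). In those 3 fits 6.86%, 8.96% and 7.79% of all genes tested were called. MRPL2 lies at chr6:43054029-43059806 on the minus strand (GRCh38) and shares 14.7% of its exon bases with KLC4.

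Deviations of wild-type and clone 2 libraries from their group means were correlated by replicate number, and a fit with the number as a block called more genes. With the block, 5 of the 78 were higher in clone 2 and 2 lower, where 16% of all genes tested were called. The higher genes were MRPL2 (adjusted p 0.00307), MRPL28 (0.0248), MRPL4 (0.0277), MRPL37 (0.0461) and MRPL10 (0.0475). The lower genes were MRPS18C (0.0201) and MRPL1 (0.0254), both on chromosome 4. Without the block, MRPS18C stood at -0.48 (SE 0.17, adjusted p 0.107) and MRPL1 at -0.44 (SE 0.18, adjusted p 0.161).

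MRPL1 encodes uL1m, of the stalk where tRNAs leave the ribosome. Its levels were 75.5, 60.4 and 71.7 CPM in wild type and 70.4, 42.8 and 40.4 in clone 2. Clone 2 library 1 lay within the wild-type range, and the other two lay below it. Genes within 5 Mb of MRPL1 and of MRPS18C, in windows that overlap, had median log2 fold changes of -0.37 and -0.28 in clone 2. The genes around MRPL1 stood at -0.24 in clone 1 as well, where MRPL1 itself stood at 0.05. Whether these regions changed as a whole was not tested.

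The remaining extremes in clone 2 were not called. MRPS24 stood at 0.50 (SE 0.49, adjusted p 0.567), with 2.53, 1.65 and 1.61 CPM in wild type and 5.01, 2.37 and 0.90 in clone 2. MRPL37 stood at 0.47 (SE 0.19, adjusted p 0.138) and MRPL38 at -0.59 (SE 0.37, adjusted p 0.344).

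**Figure D3:**
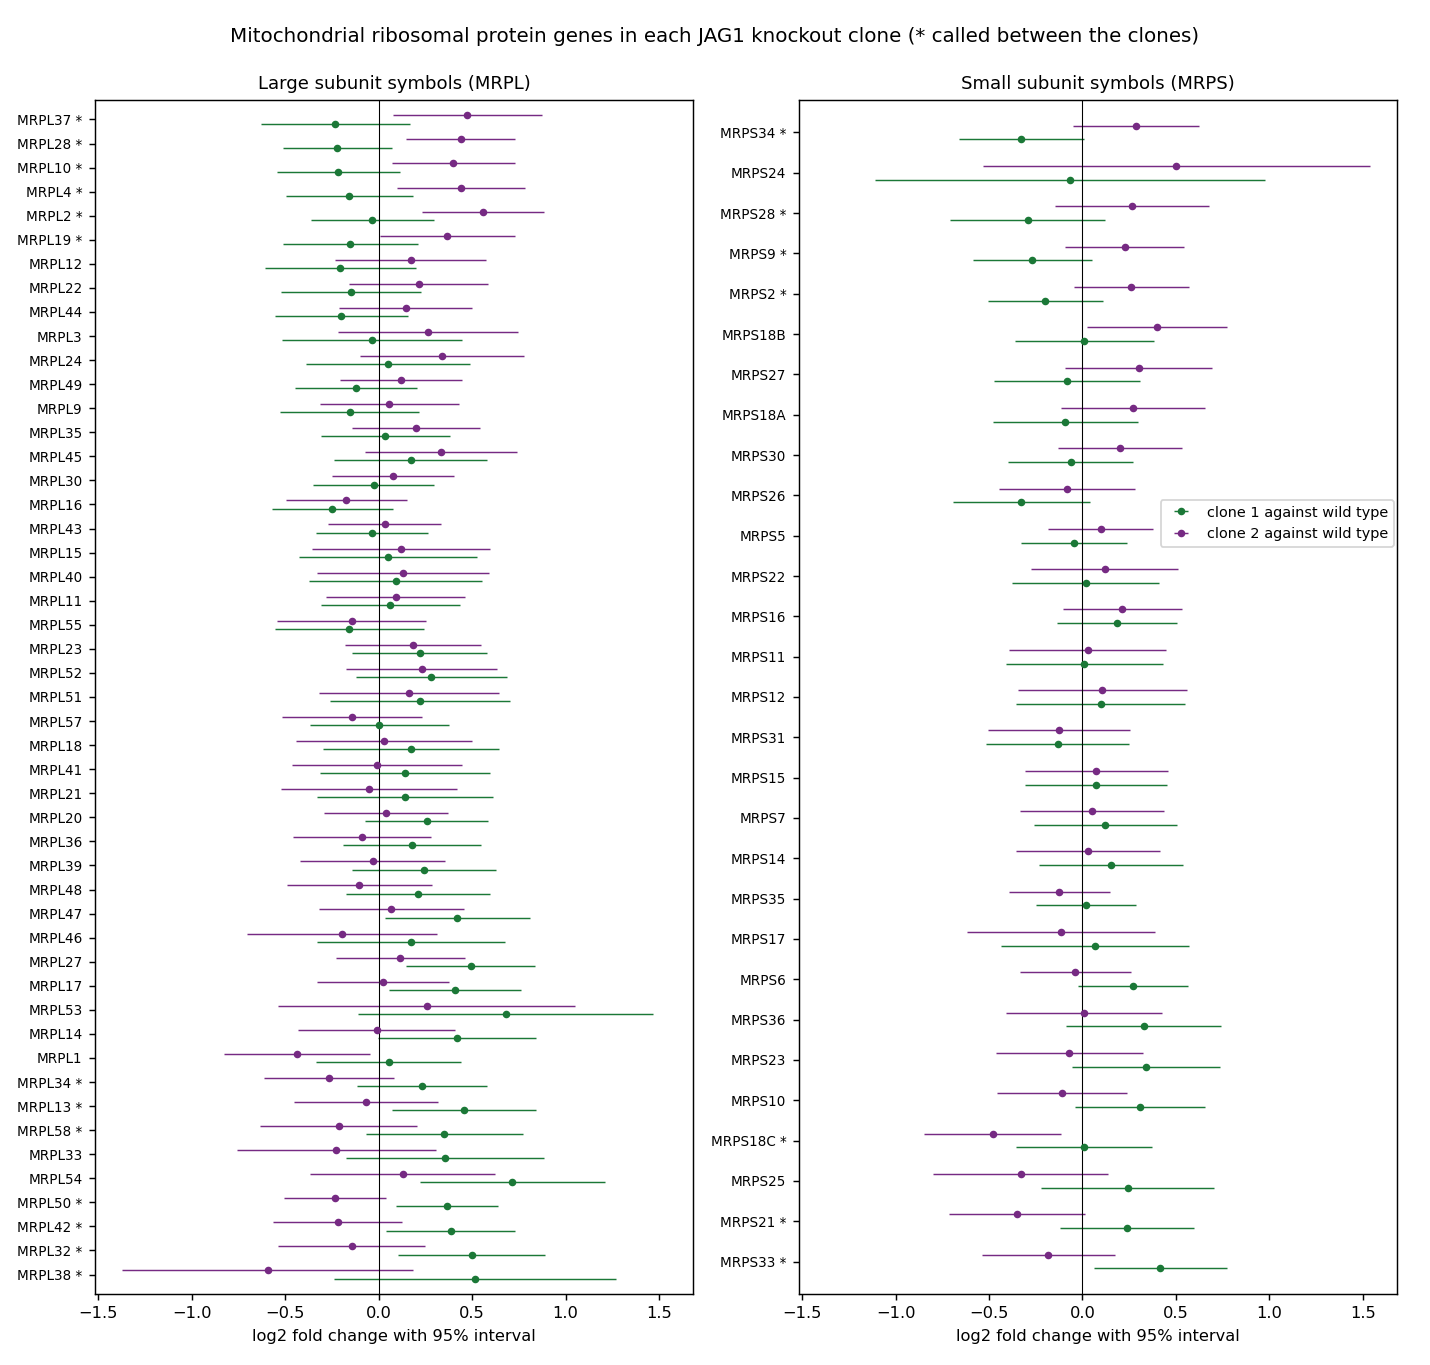
log2 fold change of each gene against wild type with its 95% interval, clone 1 in green and clone 2 in purple, MRPL genes left and MRPS genes right, ordered by the difference between the clones. Genes with an asterisk are the 20 called between the clones, such as MRPL37 at the top (-0.23 in clone 1 and 0.47 in clone 2) and MRPL38 at the bottom (0.52 and -0.59).

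The clones were then compared with each other, which asks whether they differed from wild type in the same way. Between them, 10 of the 78 genes were higher in clone 2 and 10 were lower, where 33.9% of all genes tested were called (19.8% higher and 14.1% lower). The share of called genes was 25.6%, below that background. The higher genes were 6 of 49 MRPL and 4 of 29 MRPS genes, and the lower genes were 7 and 3. The median log2 difference was -0.06 for MRPL and 0.01 for MRPS genes, against -0.01 for all genes tested. With RLE size factors 9 were higher and 14 lower, where 33.7% of all genes tested were called. The median log2 difference of all genes tested was -0.05 in that fit. Libraries of the clones did not overlap in 10 genes above and 12 below, against 47.4% of all genes tested.

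The counts moved with single libraries, as did the share of all genes called. Without clone 2 replicate 1, 7 genes were higher and 28 lower, where 32.6% of all genes tested were called. Without clone 1 replicate 1 the counts were 12 and 3 (26.9% of all genes), without clone 1 replicate 2 they were 6 and 11 (25.8%), and without clone 1 replicate 3 they were 4 and 4 (21.7%). Without clone 2 replicate 2 they were 10 and 6 (30.6%), and without clone 2 replicate 3 they were 6 and 2 (20.5%). The genes that were called however the libraries were left out, over all 9 such fits, were MRPL2, MRPL10, MRPL28 and MRPS34 among the higher and MRPL42 and MRPL50 among the lower.

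Among the higher genes of the large subunit, MRPL28 (bL28m, with a bacterial homologue) had the smallest adjusted p. It read 56.5, 56.2 and 48.5 CPM in clone 1 and 95.9, 72.9 and 86.1 in clone 2, with 61.4, 64.9 and 61.6 in wild type. The clone 2 libraries lay above, and the clone 1 libraries below, all 3 wild-type libraries. The log2 difference was 0.66 (SE 0.14, adjusted p 0.00206).

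MRPL10 (uL10m) anchors the stalk that recruits translation factors. It read 53.9, 46.6 and 38.3 CPM in clone 1 and 82.2, 61.1 and 69.5 in clone 2. The clones did not overlap, and the log2 difference was 0.62 (SE 0.16, adjusted p 0.00682).

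MRPL2 and MRPL4, of the peptidyl transferase region (uL2m and uL4m), were both higher in clone 2. MRPL4 read 71.9, 64.2 and 53.1 CPM in clone 1 and 107, 80.9 and 98.2 in clone 2, again without overlap. The log2 differences were 0.59 for MRPL2 (SE 0.16, adjusted p 0.00834) and 0.60 for MRPL4 (SE 0.16, adjusted p 0.0100). The other genes of that region, MRPL3 and MRPL16, were not called. The call of MRPL4 was lost without clone 1 replicate 3 (adjusted p 0.0618).

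MRPL37 (mL37, mitochondria-specific) had the largest rise, from 149, 154 and 117 CPM in clone 1 to 291, 176 and 219 in clone 2. Clone 2 library 1 was far above the other two, and all 3 lay above clone 1. The log2 difference was 0.71 (SE 0.19, adjusted p 0.00938), which was lost without clone 1 replicate 3 (0.0567). MRPL19 (bL19m) read 45.5, 40.1 and 35.0 CPM in clone 1 and 64.3, 52.9 and 55.7 in clone 2, a log2 difference of 0.52 (SE 0.17, adjusted p 0.0279) lost without clone 1 replicates 2 or 3 or clone 2 replicates 1 or 3.

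Of the small subunit, MRPS34 (mS34) read 73.6, 75.4 and 66.4 CPM in clone 1 and 135, 89.8 and 105 in clone 2. The clones did not overlap, and the wild-type values of 95.5, 76.8 and 97.8 lay above those of clone 1 and overlapped those of clone 2. The log2 difference was 0.61 (SE 0.16, adjusted p 0.00792). MRPS34 lies at chr16:1771890-1773155 on the minus strand and shares no exon bases with another gene.

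MRPS9 (uS9m, of the head, at the decoding site's tRNA) read 35.0, 30.5 and 34.1 CPM in clone 1 and 46.0, 44.2 and 50.1 in clone 2, a log2 difference of 0.49 (SE 0.15, adjusted p 0.0195). MRPS2 (uS2m) read 65.1, 62.4 and 52.7 and then 88.4, 73.5 and 86.1, a difference of 0.46 (SE 0.15, adjusted p 0.0235). Both calls were lost without clone 1 replicates 2 or 3 or clone 2 replicate 3, and that of MRPS2 also without clone 2 replicate 1. MRPS28 (bS1m) read 16.4, 14.8 and 11.5 and then 25.2, 17.9 and 19.9 CPM, and its difference of 0.56 (SE 0.20, adjusted p 0.0380) was lost in 6 of the 9 fits that left out a library, with RLE size factors and with DESeq2. In those 6, the library left out was wild-type replicate 2 or 3, clone 1 replicate 2 or 3 or clone 2 replicate 1 or 3.

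Among the genes lower in clone 2, MRPL50 and MRPL42 (mL50 and mL42, both mitochondria-specific) were called in every fit that left out a library. MRPL50 read 60.3, 57.7 and 60.8 CPM in clone 1, 43.4, 38.7 and 35.9 in clone 2 and 47.4, 46.2 and 45.2 in wild type. The 3 lines did not overlap at all, with clone 1 highest and clone 2 lowest. The log2 difference between the clones was -0.60 (SE 0.13, adjusted p 0.00260). With GC content and length taken out of each library, the difference was -0.21 with an adjusted p of 0.193.

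MRPL42 read 231, 230 and 232 CPM in clone 1 and 189, 150 and 117 in clone 2. The clone 1 libraries were almost equal, whereas those of clone 2 were spread widely below them. The log2 difference was -0.60 (SE 0.16, adjusted p 0.00973).

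**Figure D4:**
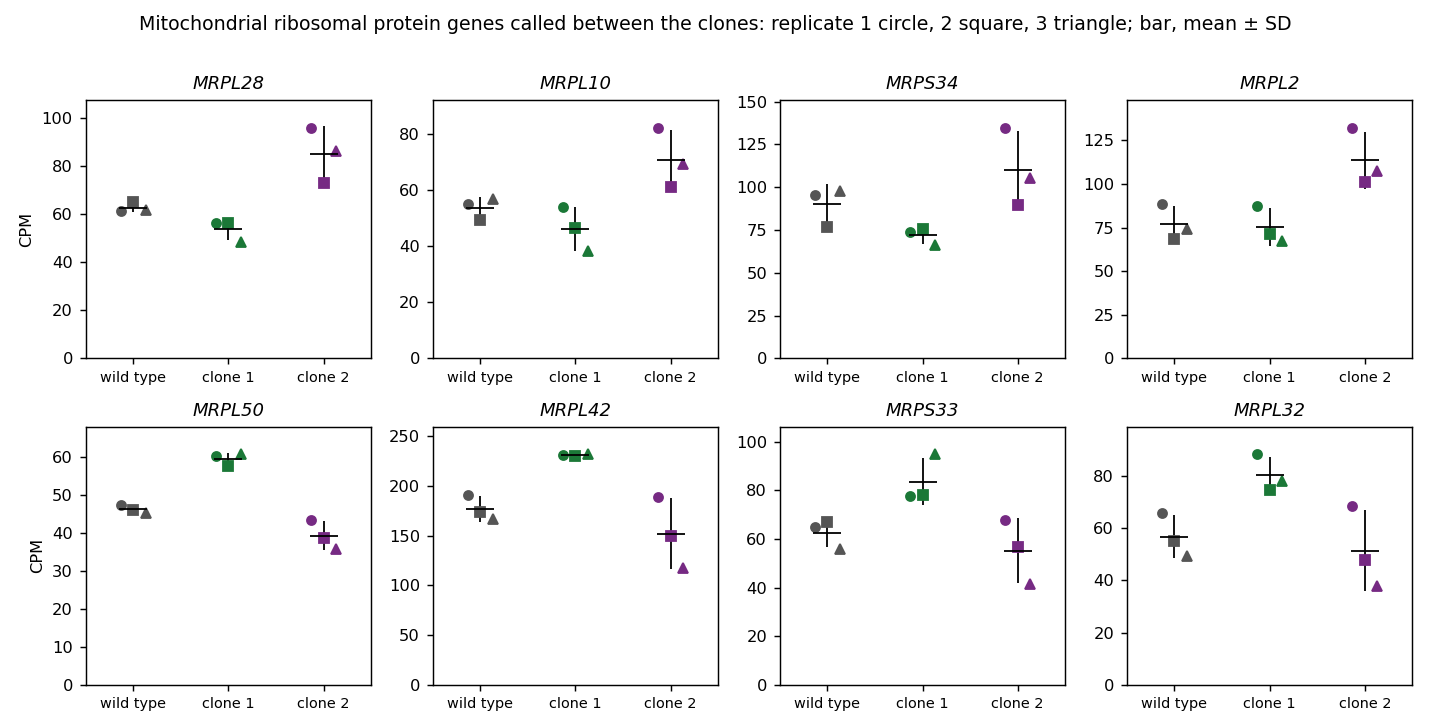
CPM by library of the 4 genes higher (top row) and 4 lower (bottom row) in clone 2 than in clone 1 with the smallest adjusted p, on axes from 0 with replicate 1 as a circle, 2 as a square and 3 as a triangle and with the mean and SD of each line. In all 8 the clones do not overlap, and for MRPL50 the 3 lines are separate.

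The largest fall was that of MRPL38, from 9.5, 4.9 and 6.4 CPM in clone 1 to 4.9, 3.3 and 1.6 in clone 2. The lowest clone 1 library and the highest of clone 2 differed by less than 0.1 CPM. The log2 difference was -1.11 (SE 0.37, adjusted p 0.0287), and its call was lost without clone 1 replicates 1 or 3 or clone 2 replicate 3. MRPL38 belongs to the central protuberance, as does MRPL58, a gene for a protein (mL62) that also exists as the peptidyl-tRNA hydrolase ICT1.

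MRPL58 read 92.6, 79.8 and 80.7 CPM in clone 1 and 77.4, 49.6 and 44.3 in clone 2, a log2 difference of -0.57 (SE 0.20, adjusted p 0.0381). It was lost without clone 1 replicates 1 or 3 or clone 2 replicates 2 or 3. The central protuberance holds 9 of the 78 genes by a list drawn up from general knowledge. Of these 2 were lower and none was higher, where 14.1% and 19.8% of all genes tested were, and the median log2 difference was -0.32.

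MRPL32 (bL32m, which is cleaved by a mitochondrial protease before it joins the ribosome) read 88.3, 74.5 and 77.9 CPM in clone 1 and 68.5, 47.7 and 38.0 in clone 2. The clones did not overlap, and the log2 difference was -0.64 (SE 0.19, adjusted p 0.0147). MRPL34 (bL34m) read 75.6, 71.0 and 74.5 and then 65.7, 48.8 and 42.5 CPM, a difference of -0.50 (SE 0.16, adjusted p 0.0286). MRPL13 (uL13m) read 252, 208 and 239 and then 213, 153 and 120 CPM, a difference of -0.52 (SE 0.18, adjusted p 0.0363).

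Of these 3, MRPL13 was the one whose libraries overlapped between the clones, since clone 2 library 1 lay above clone 1 library 2. MRPL32 lost its call without clone 1 replicate 1 or clone 2 replicate 3. MRPL13 and MRPL34 lost theirs without clone 1 replicates 1 or 3 or clone 2 replicates 2 or 3.

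Of the small subunit, MRPS33 (mS33, of the head) read 77.6, 78.2 and 94.7 CPM in clone 1 and 67.7, 56.5 and 41.3 in clone 2, a log2 difference of -0.60 (SE 0.17, adjusted p 0.0127). MRPS21 (bS21m) read 30.1, 23.1 and 26.2 and then 18.6, 19.8 and 14.4 CPM, a difference of -0.59 (SE 0.17, adjusted p 0.0150). Neither gene overlapped between the clones. The call of MRPS33 was lost without clone 1 replicate 3 or clone 2 replicate 3, and that of MRPS21 without clone 1 replicate 1 or clone 2 replicate 3.

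MRPS18C is 1 of 3 paralogs of the bacterial protein S18. It encodes bS18m, MRPS18B encodes mS40, and MRPS18A encodes mL66, which sits in the large subunit in spite of its symbol. MRPS18C read 36.4, 35.1 and 34.7 CPM in clone 1 and 32.5, 23.8 and 19.5 in clone 2, a log2 difference of -0.49 (SE 0.17, adjusted p 0.0394). Its call was lost without any 1 of the clone 1 libraries or without clone 2 replicates 2 or 3. MRPS18B stood at 0.39 (SE 0.18, adjusted p 0.0980) and MRPS18A at 0.36 (SE 0.18, adjusted p 0.138), so neither passed the test. MRPS18A and MRPS18C share 47.0% and 40.2% of their exon bases with the neighbours RSPH9 and FAM175A, and MRPS18B shares none.

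Other symbols also differ from the place of their protein. MRPS30 encodes mL65 of the large subunit and stood at 0.26 between the clones (SE 0.16, adjusted p 0.210). MRPS36 was reassigned to the alpha-ketoglutarate dehydrogenase complex and stood at -0.32 (SE 0.20, adjusted p 0.224). Counted by the place of the protein, with 51 large subunit genes, 26 small subunit genes and MRPS36 alone, the counts of called genes were the same as by symbol.

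The 10 higher and 10 lower genes are described here by features that the test did not use. Of the higher genes 8 have a bacterial homologue, and of the lower genes 5, where 48 of the 78 do. The median GC content of their transcripts was 55.1% for the higher genes (42.8 to 63.6%) and 41.3% for the lower genes (35.0 to 61.4%), against 49.2% for the genes not called. Across all 78 genes the log2 difference between the clones and GC content had a Spearman correlation of 0.29, and across 14767 tested genes with a known GC content it was 0.09. These are correlations across genes of the same libraries, and genes are not independent replicates.

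With GC content and length taken out of each library, 13 genes were higher and 12 lower, where 35.2% of all genes tested were called, and 17 of the 20 were still called. The exceptions were MRPL13 (adjusted p 0.0954), MRPS18C (0.0795) and MRPL50. The YY1 letters occurred in the promoters of 0 of 7 higher, 4 of 9 lower and 9 of 53 genes that were not called, for those with a RefSeq entry. The ETS letters occurred in 2 of 7, 5 of 9 and 22 of 53. The genes lay on 8 chromosomes in each direction, and the median difference of genes within 5 Mb had the gene's own sign for 5 of 10 in each.

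Reads of the ribosomal RNAs that complete these particles were counted in the same libraries. The mRNAs that mitochondrial DNA encodes summed to 9796 CPM (clone 2 library 1) to 46139 CPM (clone 1 library 3). In every library that sum lay above each of the ribosomal RNAs. Whether the libraries kept ribosomal RNA in proportion to mRNA was not tested. The values below are therefore shares of reads, not amounts of ribosomal RNA in the cells. MT-RNR2, the RNA of the large subunit, read 1462, 2135 and 1111 CPM in wild-type cells, 1439, 2254 and 2926 in clone 1 and 879, 1163 and 767 in clone 2. All clone 2 libraries lay below all of clone 1, with a log2 difference of -1.24 (SE 0.28, adjusted p 0.00344), which kept its call in all 9 fits that left out a library. MT-RNR1, of the small subunit, read 239, 408 and 238, then 311, 409 and 591, and then 313, 254 and 209 CPM, with a difference of -0.76 between the clones (SE 0.25, adjusted p 0.0315), lost without clone 1 replicate 3 or clone 2 replicates 2 or 3. In wild type, library 2 held the lowest summed level of the protein genes and the highest of both ribosomal RNAs, as did library 3 in clone 1. In clone 2, library 1 held the highest summed level and the highest MT-RNR1, while MT-RNR2 was highest in library 2.

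Neither ribosomal RNA was called against wild type, at adjusted p of 0.310 and 0.203 in clone 1 and 0.115 and 0.692 in clone 2 for MT-RNR2 and MT-RNR1. The 13 mitochondrially encoded mRNAs, the templates of these ribosomes, made up 2.62 ± 1.01% of counts in wild-type cells, 3.60 ± 1.31% in clone 1 and 1.21 ± 0.51% in clone 2 (SD, n = 3 each). Of the 13, 12 were lower in clone 2 than in clone 1 with a median log2 difference of -1.43. MT-CO1, a subunit of cytochrome c oxidase, also fell in clone 2 against wild type (log2 fold change -1.17, adjusted p 0.0451), a call lost without wild-type replicates 1 or 2, clone 1 replicate 2 or clone 2 replicates 1 or 3.

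**Figure D5:**
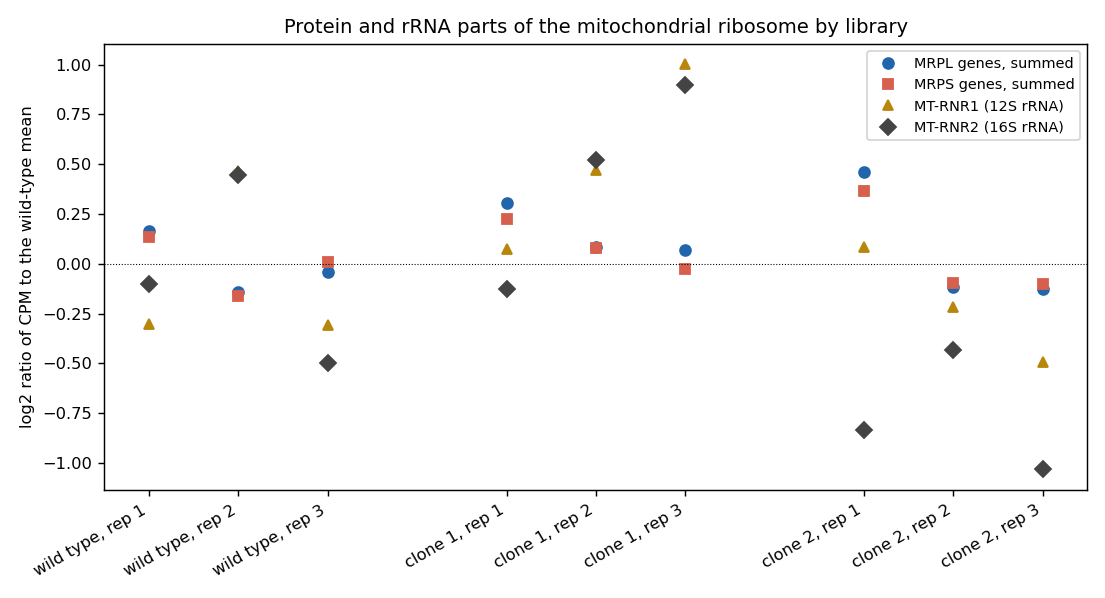
Summed MRPL genes (blue circles), summed MRPS genes (red squares), MT-RNR1 (yellow triangles) and MT-RNR2 (black diamonds) in each library, as log2 ratio of CPM to the wild-type mean. Whether reads of the ribosomal RNAs follow their amount in the cells was not tested. The blue and red points lie close to each other in every library. MT-RNR2 is highest in clone 1 replicate 3 (2926 CPM). In clone 2 (767 to 1163 CPM) it lies below all of clone 1 and overlaps wild type.

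The other nuclear genes of mitochondrial translation were counted from lists drawn up from general knowledge. Of 5 ribosomal proteins with other symbols, 1 rose between the clones, AURKAIP1 (mS38), from 87.0, 63.6 and 68.8 CPM in clone 1 to 125, 83.3 and 94.9 in clone 2 (log2 difference 0.46, adjusted p 0.0388). Those values overlapped, the call was lost without wild-type replicates 2 or 3, clone 1 replicates 2 or 3 or clone 2 replicates 1 or 3, and none of the 5 was called against wild type. Of 29 genes for assembly of the ribosome and modification of its RNA, 8 were higher and 4 lower in clone 2 than in clone 1. The share called was 41.4%, against 33.9% of all genes tested (19.8% higher and 14.1% lower).

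Against wild type, assembly genes had 1 call in each clone, where 5.51% (clone 1) and 5.96% (clone 2) of all genes tested were called. NGRN, which is needed for the large subunit's RNA, fell in clone 1 (log2 fold change -0.56, adjusted p 0.0351), and MTG1, a GTPase of large subunit assembly, fell in clone 2 (-1.15, adjusted p 0.0434). NGRN read 54.5, 47.0 and 52.3 CPM in wild type and 39.0, 35.0 and 30.2 in clone 1. MTG1 read 12.3, 12.9 and 6.9 CPM in wild type and 3.9, 7.3 and 3.2 in clone 2, with overlap. NGRN lost its call without any 1 of the wild-type or clone 1 libraries, and MTG1 without any 1 of the 9 except wild-type replicate 3 and clone 2 replicate 2.

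Of 17 translation factors, 6 were higher and 1 lower in clone 2 than in clone 1, with a median log2 difference of 0.26. Their differences ran from -0.76 to 0.89. The share called was 41.2%, against 33.9% of all genes tested (19.8% higher and 14.1% lower). TUFM, the elongation factor that delivers tRNAs, had a difference of 0.84 (adjusted p 0.00197), LRPPRC, an mRNA-binding factor, of 0.89 (0.00250) and GFM1, the translocation factor, of 0.87 (0.00346). Against wild type GUF1, a back-translocating GTPase, rose in clone 2 (0.58, adjusted p 0.0255), a call lost without wild-type replicates 1 or 2 or clone 2 replicate 3. No translation factor was called in clone 1 against wild type.

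Of 22 mitochondrial aminoacyl-tRNA synthetases, which load tRNAs, 8 were higher and 1 lower in clone 2 than in clone 1, with a median of 0.23. The share called was 40.9%, against 33.9% of all genes tested (19.8% higher and 14.1% lower). LARS2 fell in clone 1 (log2 fold change -0.66, adjusted p 0.0254). GARS, which serves both the cytosol and mitochondria, fell in clone 1 (-0.55, adjusted p 0.0436) and rose in clone 2 (0.53, adjusted p 0.0475). It read 128, 142 and 162 CPM in wild-type cells, 92.6, 103 and 99.4 in clone 1 and 193, 183 and 246 in clone 2, so the 3 lines did not overlap.

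LARS2 lost its call without wild-type replicate 3 or clone 1 replicates 2 or 3. GARS lost its call in clone 1 without wild-type replicates 2 or 3, clone 2 replicate 2 or any 1 of the clone 1 libraries, and in clone 2 without wild-type replicates 1 or 2, clone 2 replicate 3 or any 1 of the clone 1 libraries.

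Of 11 genes that copy or transcribe mitochondrial DNA, none was called against wild type. In each clone 3 had an unadjusted p under 0.05, against 3692 (clone 1) and 4097 (clone 2) of the 16921 genes tested. Between the clones 3 were higher in clone 2 and 2 lower, or 45.5%, against 33.9% of all genes tested. The log2 differences of the 11 ran from -0.74 to 1.16, and the smallest adjusted p was 0.000356. POLRMT, the mitochondrial RNA polymerase, stood at 0.73 (adjusted p 0.000949). Of 9 regulators of mitochondrial biogenesis, PPRC1 rose in clone 2 against wild type (0.60, adjusted p 0.0362), lost without wild-type replicates 1 or 2, clone 1 replicate 2 or clone 2 replicate 3. Between the clones NRF1, MYC, PPRC1 and YY1 were higher in clone 2, at 0.82, 0.75, 0.86 and 0.75 on the log2 scale, and none of the 9 was lower. That was 44.4% of the 9, against 33.9% of all genes tested (19.8% higher and 14.1% lower).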

How the data were processed

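RNA was measured in 9 libraries, 3 per group. The authors deposited raw counts of reads per gene in a table for each clone, and the 3 wild-type columns, identical in both, entered once. The tools named, per the submitters' processing notes, are featureCounts, Subread, DESeq2 and STAR, without roles, with the build GRCh38. Their versions, the annotation and whether strand was used were not given in the sources used here. No molecular identifiers are mentioned, so counts are of reads, not of molecules.

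From the counts, edgeR 4.0.16 (R 4.3.3) was run on all 9 libraries in 3 groups: TMM scaling, filterByExpr with a minimum count of 10 (16921 genes), a robust two-sided quasi-likelihood test with 6 residual degrees of freedom, Benjamini-Hochberg adjustment over all genes tested and a threshold of 0.05. The biological coefficient of variation was 20.3%. CPM uses TMM-scaled library sizes, and TPM the deposited gene lengths. Chi-square per gene between replicates was 17.4 to 61.9, so none was a duplicate. On simulated counts for clone 1 against wild type (16921 genes), 56% of genes changed by 1 on the log2 scale and 79% of those changed by 2 were recovered.

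Same-numbered wild-type and clone 2 libraries correlated in their deviations at 0.223, 0.269 and 0.246, each over 0.1, so by that rule the numbers pair this comparison, though the labels do not say what a number marks; other pairs of groups did not pass. Alternatives were RLE size factors, no filter, DESeq2 1.42.0, limma-voom (limma 3.58.1), a replicate block, the 6 libraries compared, GC and length correction (mgcv 1.9.3; 87.3% of tested genes, GENCODE transcripts) with and without the block, and leaving out each library. Pseudogene symbols (75, of which 20 had a count) are not among the 78, and their counts came to 0.0617 to 0.167% of those of the 78 in a library.

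The genes and lists were chosen with earlier results of these data known. Named were every called gene, the 3 largest and 3 smallest fold changes per comparison, the 3 highest and lowest wild-type levels, symbols that differ from the protein's place, the S18 paralogs, JAG1 and, from other lists, called genes or, where many, the 4 that ranked first by adjusted p in a clone. TUFM, LRPPRC, GFM1 and POLRMT were named after their values were seen.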

Additional observations from a re-analysis of the deposited data

Results flagged for a closer look

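In 20 genes the change from wild type differed between the knockout clones by the test of that difference (edgeR, adjusted p under 0.05 over all genes tested). On the log2 scale, clone 2 minus clone 1, the positive differences were 0.71 for MRPL37, 0.66 for MRPL28, 0.62 for MRPL10, 0.61 for MRPS34, 0.60 for MRPL4, 0.59 for MRPL2, 0.56 for MRPS28, 0.52 for MRPL19, 0.49 for MRPS9 and 0.46 for MRPS2. The negative differences were -1.11 for MRPL38, -0.64 for MRPL32, -0.60 for MRPL42, -0.60 for MRPL50, -0.60 for MRPS33, -0.59 for MRPS21, -0.57 for MRPL58, -0.52 for MRPL13, -0.50 for MRPL34 and -0.49 for MRPS18C. Of the 20, MRPL2 alone was called against wild type, in clone 2. Groups of 3 libraries were too small for a check of single outlying libraries.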

How the results depend on the processing

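For clone 1 against wild type, genes called higher numbered 2 without the filter, 1 with DESeq2, 7 with the replicate block, 4 with the 6 libraries compared, 2 with GC and length correction and 9 with that correction and the block, where 1 was lower. MRPL54 was among them in each (adjusted p 0.00136 with the block), and with the block the others were MRPL13, MRPL14, MRPL17, MRPL27, MRPL32 and MRPL47. Of all genes in those fits, 4.73% were called without the filter, 4.31% with DESeq2 and 13.7% with the block. The shares were 7.85% with the 6 libraries, 5.95% with GC and length correction and 15.0% with both. For clone 2 against wild type, the counts were 0 higher with RLE size factors and with the 6 libraries, 2 with GC and length correction, 5 higher and 2 lower with the block, and 6 and 1 with both, where 18.1% of all genes were called. Between the clones, 17 were lower without the filter, 14 higher and 19 lower with the block, and 18 and 19 with both, where 17.9%, 42.0% and 43.3% of all genes were called. The block rests on shared replicate numbers, which pair only wild type and clone 2 by the correlation check, and same-numbered clone 1 libraries correlated with wild type at 0.245, 0.0825 and -0.0965. The cause of these differences was not tested.

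Leaving out 1 library gave 0 to 5 genes higher and 0 to 0 lower in clone 1, and 0 to 2 and 0 to 2 in clone 2. Between the clones it gave 4 to 12 and 2 to 28. Of all genes tested, those fits called 1.15 to 7.34% in clone 1, 1.34 to 8.96% in clone 2 and 20.5 to 32.6% between the clones. The medians ranged from 0.0034 to 0.23 (MRPL) and -0.059 to 0.14 (MRPS) in clone 1, -0.18 to 0.16 and -0.15 to 0.18 in clone 2, and -0.34 to 0.067 and -0.19 to 0.10 between the clones, so none has a direction that holds without any 1 library except the MRPL median in clone 1. The MRPS median between the clones, 0.009, was below 0 under each other alternative (-0.029 to -0.012). No single-gene value changed sign while called. Of single-gene results, 334 stayed on their side of the threshold, 18 passed it and 8 lost it under other settings, and 348, 5 and 52 on leaving out a library. At a median standard error of 0.18, small differences are not detectable.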
